A study of Homo sapiens with 6 samples.

Results

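Tumour immune checkpoint ligands are molecules on or from a tumour cell that restrain T cells, NK cells or macrophages. A set of 9 genes for such molecules or for proteins tied to them was read in an RNA-seq comparison of HMGB2 knockdown with mock infection. The cells were KYSE450, an established line of esophageal squamous cell carcinoma (ESCC). Members were the rows of the deposited table whose gene name was CD274, PDCD1LG2, CD276, CD47, PVR, NECTIN2, CMTM6, LGALS9 or NT5E, which gave 9 of 27887 rows. The shHMGB2 group had 3 libraries from cells infected with a virus carrying a short hairpin RNA against HMGB2, with the genotype given as HMGB2 knockdown. The mock group had 3 libraries from cells given a mock virus infection, with the genotype given as WT. In both groups replicates 2 and 3 are labelled as repeat samples, and the labels name 1 hairpin only. The labels do not say whether the mock virus carried a hairpin, nor whether the repeats were grown as separate cultures, so the p-values cover library-to-library spread that may be technical.

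CD274 encodes PD-L1 and PDCD1LG2 encodes PD-L2, both ligands of the T cell receptor PD-1, and CMTM6 encodes a membrane protein that keeps PD-L1 at the cell surface and away from lysosomes. PVR (CD155) and NECTIN2 (CD112) bind TIGIT, which restrains T and NK cells, and CD226, which activates them. CD47 binds SIRPA on macrophages and blocks engulfment, LGALS9 encodes galectin-9, a lectin that binds TIM-3, NT5E encodes CD73, the enzyme that makes adenosine from AMP, and CD276 encodes B7-H3, a B7 family protein whose receptor is not settled. In epithelial tumours PD-L1 is known to be raised by interferon through JAK kinases and IRF1.

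Expression was given as FPKM, a value scaled by transcript length and library size, which allows levels of different genes to be set side by side. HMGB2, the target of the hairpin, had 22.1, 24.5 and 27.8 FPKM in the shHMGB2 libraries and 115.8, 111.4 and 108.6 FPKM in the mock libraries, so the knockdown left 22.1% of the mock mean. Relative size factors read from the deposited group values ranged from 0.699 to 1.31 over the shHMGB2 libraries and from 0.874 to 1.21 over the mock libraries. Between 2 libraries of a group Pearson's r across genes was 0.985 to 0.989, and between a library of each group it was 0.978 to 0.987. The ESCC label was read against 10 squamous epithelium markers, all of which were expressed, with a summed level of 6683 to 7409 FPKM in shHMGB2 and 7690 to 7969 FPKM in mock. Of 10 leukocyte markers with a row, 9 stayed under the filter of a mean of 1 FPKM, with 0.27 FPKM as their highest value in any library. Among them PTPRC, the pan-leukocyte marker CD45, had at most 0.02 FPKM in shHMGB2 and 0.03 FPKM in mock. The summed leukocyte list was 4.92 to 5.46 FPKM in shHMGB2 and 7.26 to 8.08 FPKM in mock, nearly all of it from CD68, a lysosomal protein that epithelial cells can also make and that was lower in shHMGB2 (log2 fold change -0.61, limma adjusted p = 0.00454). Of the squamous markers 1 (SOX2) was higher and 3 (KRT14, KRT6A and KRT17) were lower in limma. These calls were 40% of the list, against 6.75% of all rows tested. KRT5 did not pass (limma adjusted p = 0.729). Summed fibroblast markers were 4.0 to 4.46 FPKM in shHMGB2 and 2.94 to 3.7 FPKM in mock, endothelial markers 2.39 to 2.81 FPKM in shHMGB2 and 1.88 to 2.58 FPKM in mock, and markers of HEK293T cells, often used to package virus, 19.65 to 21.08 FPKM in shHMGB2 and 16.68 to 17.49 FPKM in mock. The highest values of these lists came from LUM, ERG and NEFL, in that order. Of the HEK293T markers NEFL was higher (log2 fold change 0.37, limma adjusted p = 0.0292) and ZIC2 did not pass (limma adjusted p = 0.686). NEFM, LIN28B and PAX2 stayed at or under 0.25 FPKM in every library. The part of these marker differences in the results below was not tested.

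No member passed the test between shHMGB2 and mock, while the direction and size of the differences varied between members. The test was limma on log2(FPKM + 1) across the 13409 rows with a mean of at least 1 FPKM, with Benjamini-Hochberg adjustment and a two-sided threshold of an adjusted p of 0.05. Of the 9 members, 8 were tested and 1, PDCD1LG2, did not pass the filter on low values. Of the 8 tested, 0 were higher and 0 were lower, against a background of 6.75% of all rows tested, of which 3.3% were higher and 3.45% were lower. At an unadjusted p under 0.05, limma gave 3 of the 8 members, LGALS9 and CD274 with a higher and NT5E with a lower level, against 27.9% of all rows. The libraries of the groups did not overlap for 4 of the 8 members, against 35.6% of all rows. Of these 4, LGALS9 and CD274 were higher in every shHMGB2 library (21.6% of all rows) and NT5E and PVR were lower in every one (14% of all rows). The median log2 fold change was -0.04 over the 8 members and 0.04 over all rows tested. These are levels of bulk RNA, in which fewer expressing cells and less RNA per cell cannot be told apart. The authors' deposited table, whose test the sources do not name, marked 2 of 8 members at an adjusted p under 0.05, against 15.4% of its rows with an adjusted p. These 2, NT5E and PVR, were both lower (9.23% of its rows) and 0 members were higher (6.13% of its rows).

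**Figure D1:**
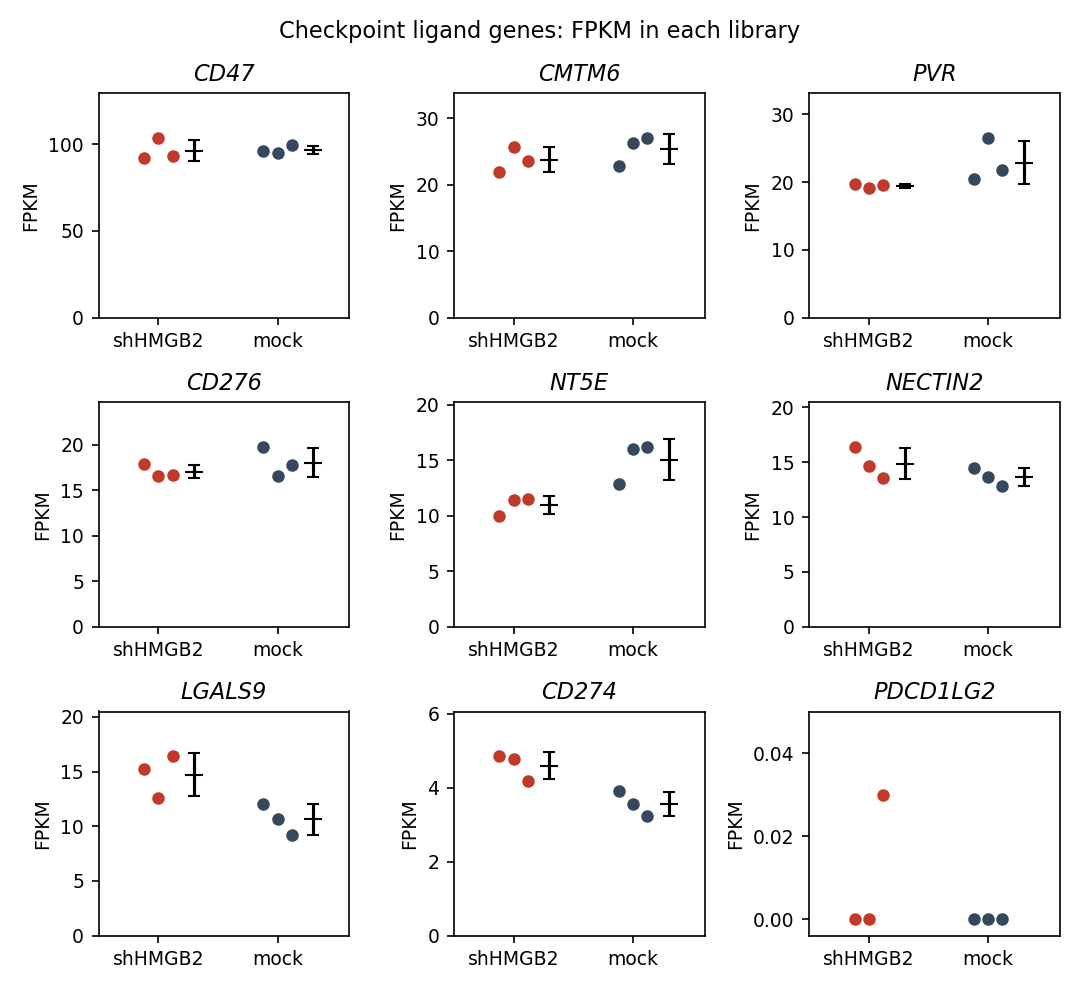
FPKM (y axis, from 0, on its own scale in each panel) of the 9 genes in the 3 shHMGB2 libraries (red) and the 3 mock libraries (dark blue), ordered by mock mean, with mean and SD beside the points except for PDCD1LG2, which is listed at 0 in 5 libraries. The red and blue points do not overlap for NT5E, PVR, LGALS9 and CD274.

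CD47 was the most abundant member in both groups and CD274 the least abundant member that could be tested. In shHMGB2 the order by mean FPKM was CD47, CMTM6, PVR, CD276, NECTIN2, LGALS9, NT5E, CD274 and PDCD1LG2. In mock it was CD47, CMTM6, PVR, CD276, NT5E, NECTIN2, LGALS9, CD274 and PDCD1LG2. NT5E stood below NECTIN2 and LGALS9 in shHMGB2 and above both in mock. The neighbours NECTIN2 and LGALS9 overlapped in their libraries in shHMGB2, and in mock CMTM6 overlapped with PVR and NT5E with NECTIN2. The step from CD47 to the next gene was the widest among the expressed members, at 4.05-fold in shHMGB2 and 3.82-fold in mock. CD47 alone made up 46.6% to 49.7% of the members' summed FPKM in shHMGB2 and 45.7% to 48.0% in mock.

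CD274 was higher in all 3 shHMGB2 libraries without passing the test. Its level was 4.85, 4.77 and 4.18 FPKM in shHMGB2, against 3.9, 3.55 and 3.23 FPKM in mock. The lowest shHMGB2 library lay just above the highest mock library. The means were 4.6 ± 0.366 FPKM in shHMGB2 and 3.56 ± 0.335 FPKM in mock (SD, n = 3 each), a ratio of 1.29. The log2 fold change was 0.30 (SE 0.0897, 95% interval 0.09 to 0.51, limma adjusted p = 0.0896). In the authors' deposited table CD274 had group values of 237.2 in shHMGB2 and 171.5 in mock, a log2 fold change of 0.47 and an adjusted p of 0.0531, just short of 0.05. These group values were the lowest of the 8 tested members. In RefSeq CD274 and PDCD1LG2 both overlap INCR1, a gene with no row of that name in the deposited table. The sources do not say whether counting used strand.

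The window upstream of CD274 is shown because it holds the interferon-type sequence motif for which this gene is known, and LGALS9 is the other member with a match. RefSeq windows of GRCh38.p14, from 250 bases before to 50 after each start, were found for 8 of the 9 members, in 9 windows. On both strands 5 motifs were searched, the interferon-stimulated response element (ISRE) as GAAA and GAAA around any 2 bases, the interferon gamma activated site (GAS) as TTCNNNGAA and in a stricter form TTCCNGGAA, the AP-1 site TGANTCA and the NF-kB site as GGGA and TTTCC around any base. The stricter GAS form is contained in the looser one. The CD274 stretch covers the 250 bases before its start, chr9:5450292-5450541 on the plus strand, and the LGALS9 stretch is the 30 bases around its start, chr17:27631169-27631198 on the plus strand. Capitals mark ISRE matches, which lie on the opposite strand and therefore read TTTC and TTTC around 2 bases.
CD274: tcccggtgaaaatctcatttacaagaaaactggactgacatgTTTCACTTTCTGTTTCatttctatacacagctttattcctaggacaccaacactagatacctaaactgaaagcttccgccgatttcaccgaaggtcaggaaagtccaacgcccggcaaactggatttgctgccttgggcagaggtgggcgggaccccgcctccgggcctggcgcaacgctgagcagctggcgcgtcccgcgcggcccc
LGALS9: gttgctttggTTTCTATTTCtttgttaagt

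In CD274 there were 2 overlapping ISRE matches, the first from 208 to 199 and the second from 202 to 193 bases before the start. In LGALS9 the match began 9 bases before the start and ended on the start base itself. An ISRE match was present in 2 of 9 member windows and in 3.57% of all 35116 windows. The looser GAS form matched in CD274 alone among the members, 125 to 117 bases before the start, and in 7.66% of all windows. The stricter GAS form, the AP-1 and the NF-kB motif matched in 0 of the 9 member windows and in 1.15%, 7.71% and 0.558% of all windows. A match describes these letters and shows neither binding nor use, and the absence of one says only that the letters are not in this window.

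PDCD1LG2 was close to silent in this line. It was listed at 0 FPKM in shHMGB2 replicates 1 and 2 and in all 3 mock libraries, and at 0.03 FPKM in shHMGB2 replicate 3. Summed and multiplied by the 3 libraries of a group, its deposited group values equal 1.0 times the smallest such value among the 297 rows seen in that library alone, which matches 1 read. PDCD1LG2 starts 40.0 kb beyond the end of CD274 on chromosome 9 (CD274 at 5450542 to 5470554, PDCD1LG2 at 5510531 to 5571282, GRCh38). Genes that flank the pair were expressed. PLGRKT, a plasminogen receptor gene that lies before CD274, had 37.0 ± 0.113 FPKM in shHMGB2 and 39.7 ± 2.55 FPKM in mock (SD, n = 3 each, limma adjusted p = 0.335). RIC1, a gene of Golgi transport beyond PDCD1LG2, had 16.7 ± 0.381 FPKM in shHMGB2 and 13.9 ± 1.53 FPKM in mock (SD, n = 3 each, limma adjusted p = 0.107). These flanking genes were chosen after their values were seen.

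CMTM6, the partner of PD-L1 at the membrane, was several times as abundant as CD274 and did not pass. It had 22.0, 25.7 and 23.6 FPKM in shHMGB2, against 22.8, 26.2 and 27.0 FPKM in mock, with overlapping groups. The log2 fold change was -0.09 (SE 0.0858, 95% interval -0.29 to 0.11, limma adjusted p = 0.528). The ratio of CD274 to CMTM6 was 0.221, 0.186 and 0.177 in shHMGB2, against 0.171, 0.135 and 0.12 in mock. Every shHMGB2 library lay above every mock library in this ratio, and an exact two-sided permutation test gave p = 0.1, the smallest that 3 against 3 libraries allow (adjusted p = 0.2 over 2 ratios). Both ratios were chosen after the values were seen.

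LGALS9 had the largest positive limma log2 fold change of the tested members and likewise did not pass. It had 15.2, 12.6 and 16.4 FPKM in shHMGB2, against 12.1, 10.7 and 9.24 FPKM in mock. The groups did not overlap, and shHMGB2 replicate 2 lay close to mock replicate 1. The means were 14.7 ± 1.95 FPKM in shHMGB2 and 10.7 ± 1.42 FPKM in mock (SD, n = 3 each), a ratio of 1.38. The log2 fold change was 0.43 (SE 0.121, 95% interval 0.15 to 0.71, limma adjusted p = 0.075). The authors' deposited table gave LGALS9 a log2 fold change of 0.36 with an adjusted p of 0.0936. There CD274, with 0.47, stood above LGALS9. LGALS9B and LGALS9C are near-identical copies whose reads the authors' counting could split from LGALS9. LGALS9B had 0.73, 0.54 and 0.82 FPKM in shHMGB2 and 0.58, 0.63 and 0.68 FPKM in mock, and LGALS9C stayed at or under 0.31 FPKM in shHMGB2 and 0.40 FPKM in mock. With the 3 rows summed, the log2 fold change was 0.40 (limma adjusted p = 0.0731).

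NT5E was the member nearest to the threshold and was lower in every shHMGB2 library. It had 10.0, 11.4 and 11.5 FPKM in shHMGB2, against 12.9, 16.0 and 16.2 FPKM in mock. The means were 11.0 ± 0.839 FPKM in shHMGB2 and 15.01 ± 1.85 FPKM in mock (SD, n = 3 each), which put shHMGB2 at 73.0% of mock. Mock replicate 1 was the lowest of its group and replicate 1 of shHMGB2 the lowest of its own. The log2 fold change was -0.42 (SE 0.101, 95% interval -0.65 to -0.18, limma adjusted p = 0.0536). Without mock replicate 1 the difference passed, with a log2 fold change of -0.52 (limma adjusted p = 0.0178), and without any other single library it did not. It also passed under upper-quartile scaling (limma adjusted p = 0.0264), median-of-ratios scaling (0.03) and quantile normalization (0.0302). NT5E did not pass with no filter on low values (limma adjusted p = 0.131) or without the trend of variance on mean level (0.0608). Nor did it pass with a pseudocount of 0.1 (0.0527) or 0.5 (0.0532). In the authors' deposited table NT5E had group values of 830.5 in shHMGB2 and 1184 in mock, a log2 fold change of -0.51 and an adjusted p of 0.000123.

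PVR was lower in every shHMGB2 library, and its mock libraries were spread widely. It had 19.7, 19.1 and 19.5 FPKM in shHMGB2, against 20.5, 26.5 and 21.7 FPKM in mock. The shHMGB2 libraries lay within a narrow range just under the lowest mock library, and mock replicate 2 stood apart above the rest. The means were 19.5 ± 0.316 FPKM in shHMGB2 and 22.9 ± 3.16 FPKM in mock (SD, n = 3 each). The log2 fold change was -0.21 (SE 0.0942, 95% interval -0.43 to 0.0054, limma adjusted p = 0.187), and without mock replicate 2 it was -0.11 (limma adjusted p = 0.386). In the authors' deposited table PVR had a log2 fold change of -0.34 and an adjusted p of 0.0044. The far end of PVR overlaps CEACAM19 in the RefSeq annotation, as PVR ends at 44666162 and CEACAM19 begins at 44665860. Reads from this short stretch may not be told apart, and the sources do not say whether counting used strand. CEACAM19 had 2.59 ± 0.132 FPKM in shHMGB2 and 2.54 ± 0.512 FPKM in mock (SD, n = 3 each, limma adjusted p = 0.892).

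NECTIN2, which shares the receptors TIGIT and CD226 with PVR and lies 180.1 kb from it on chromosome 19, differed in the other direction without passing. It had 16.4, 14.6 and 13.6 FPKM in shHMGB2, against 14.5, 13.7 and 12.8 FPKM in mock, with overlapping groups. The log2 fold change was 0.11 (SE 0.0833, 95% interval -0.08 to 0.30, limma adjusted p = 0.416). The ratio of PVR to NECTIN2 was 1.21, 1.31 and 1.44 in shHMGB2, against 1.41, 1.94 and 1.7 in mock, and the groups overlapped in 1 pair of libraries (exact two-sided permutation p = 0.2, adjusted p = 0.2 over 2 ratios).

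CD47 and CD276 lay close to their mock levels. CD47 had 92.3, 103.4 and 93.1 FPKM in shHMGB2, against 95.8, 95.2 and 99.5 FPKM in mock, and the shHMGB2 libraries surrounded those of mock. Its log2 fold change was -0.01 (SE 0.0622, 95% interval -0.16 to 0.14, limma adjusted p = 0.93). CD276 had 17.9, 16.5 and 16.7 FPKM in shHMGB2, against 19.7, 16.6 and 17.7 FPKM in mock, with overlapping groups. Its log2 fold change was -0.07 (SE 0.0763, 95% interval -0.25 to 0.10, limma adjusted p = 0.557). Among the tested members CD47 had the narrowest interval, and the intervals of CD47, CD276, NECTIN2, CMTM6 and PVR all held 0. The sign of CD47 was positive after quantile normalization and with library weights. It was also positive without shHMGB2 replicate 1, without shHMGB2 replicate 3 and without mock replicate 3. The sign of CD276 was positive with library weights.

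**Figure D2:**
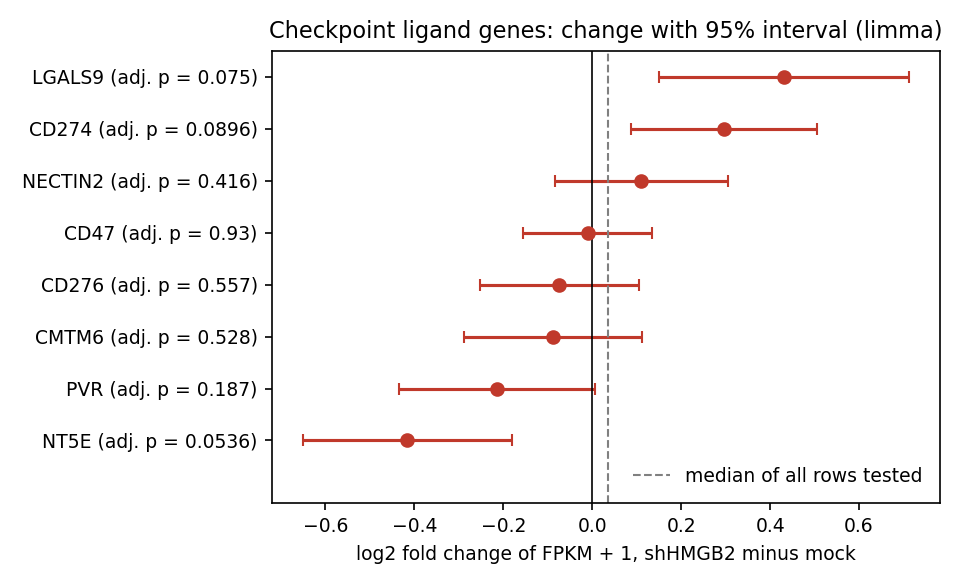
Log2 fold change of FPKM + 1, shHMGB2 minus mock (x axis), of the 8 tested members, with points for the limma estimate and bars for its 95% interval. The bars of LGALS9, CD274 and NT5E leave out 0, although their adjusted p over all rows, given beside each gene, lies above 0.05.

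The profile of CD274 over the 6 libraries was set against all 9312 rows with a mean of at least 5 FPKM. Likeness was the root mean square distance between log2(FPKM + 1) values centred on each gene's own mean. A small distance means a like difference in each library on this scale, which understates the fold changes of low genes such as CD274. The nearest 3 were CALM3, a calmodulin gene, at 0.0289, CPE, a carboxypeptidase gene, at 0.0411, and TTC9C at 0.042. CALM3 had 101.7, 101.5 and 95.6 FPKM in shHMGB2, against 87.7, 80.4 and 76.6 FPKM in mock, a log2 fold change of 0.29 (limma adjusted p = 0.0465). CPE and TTC9C did not pass (limma adjusted p = 0.1 and 0.0509). The distances describe 6 libraries of 2 groups and hold whatever those libraries share.

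Genes that control or accompany these ligands were read from 6 lists, described by counts beside the 6.75% of all rows called by limma. Among the regulators of PD-L1, 27 genes were tested, of which 3 rose and 4 fell, and the median log2 fold change was 0.04. USP22, a deubiquitinase, fell to 32.2, 29.4 and 30.1 FPKM in shHMGB2, against 55.4, 60.5 and 58.9 FPKM in mock (log2 fold change -0.91, limma adjusted p = 0.000801). Its groups did not overlap, and 14% of all rows tested were likewise lower without overlap. SOCS1, a feedback inhibitor of JAK kinases, had a log2 fold change of 0.59 (limma adjusted p = 0.0284), and CMTM7, a relative of CMTM6 with low values, one of -0.58 (limma adjusted p = 0.037). Further called genes, named after their values were seen, were JAK1, a kinase of interferon receptors, with 0.36 (limma adjusted p = 0.0255), IFNGR2, a chain of the interferon gamma receptor, with -0.29 (0.029), and MYC with -0.39 (0.0206). IRF1, a factor known to act at the CD274 promoter, had 17.0, 16.7 and 16.1 FPKM in shHMGB2, against 17.1, 14.6 and 14.4 FPKM in mock, and did not pass (limma adjusted p = 0.393). IRF1 was chosen after its values were seen, as were HLA-E, QPCTL, RAET1L, MICA, BAG6, ENTPD1 and the receptors given further on. The list is defined by reported action on PD-L1 in either direction, so its count has no single meaning for PD-L1.

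Most of the calls among PD-L1 regulators did not hold in every fit with a library left out. Such a fit has fewer libraries to test with. Over these fits the log2 fold change ranged from 0.51 to 0.68 for SOCS1 and from -0.69 to -0.47 for CMTM7. It ranged from 0.30 to 0.40 for JAK1, from -0.32 to -0.26 for IFNGR2 and from -0.44 to -0.32 for MYC. The list's 7 calls became 2 when shHMGB2 replicate 1 was left out, 3 each for shHMGB2 replicate 2, shHMGB2 replicate 3 and mock replicate 2, and 4 for mock replicate 3. USP22 passed whichever library was left out. SOCS1 lost its call when shHMGB2 replicate 1, shHMGB2 replicate 2, mock replicate 2 or mock replicate 3 was dropped (limma adjusted p from 0.0576 to 0.104). CMTM7 kept its call only when the dropped library was shHMGB2 replicate 2 (limma adjusted p from 0.063 to 0.113 otherwise). Dropping any of the shHMGB2 libraries ended the calls of JAK1, IFNGR2 and MYC, dropping mock replicate 2 those of JAK1 and IFNGR2, and dropping mock replicate 3 that of IFNGR2 (limma adjusted p from 0.0576 to 0.113). With no filter on low values SOCS1, CMTM7, JAK1, IFNGR2 and MYC did not pass either (limma adjusted p from 0.051 to 0.112).

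Among the other checkpoint and costimulatory ligands, 12 genes were tested, of which 3 rose and 1 fell, and the median log2 fold change was 0.05. The 3 that rose were the butyrophilins BTN3A1, BTN3A2 and BTN3A3, which take part in the recognition of cells by γδ T cells. BTN3A2 had 12.3, 11.99 and 12.1 FPKM in shHMGB2, against 7.38, 7.23 and 8.12 FPKM in mock (log2 fold change 0.61, SE 0.0658, limma adjusted p = 0.0031). BTN3A1 and BTN3A3 had log2 fold changes of 0.57 and 0.62 (limma adjusted p = 0.0111 and 0.00854). All 3 were higher without overlap between the groups, as were 21.6% of all rows tested. All 3 passed whichever library was left out. They are close paralogs whose reads the authors' counting could split, so they are not 3 independent observations. CD24, a ligand of the macrophage receptor Siglec-10, had 8.47, 8.65 and 9.16 FPKM in shHMGB2, against 10.5, 12.2 and 12.2 FPKM in mock (log2 fold change -0.37, limma adjusted p = 0.0367). CD24 kept its call only when the dropped library was mock replicate 1 (limma adjusted p from 0.0706 to 0.127 otherwise), and it did not pass with no filter on low values (0.0888). HLA-E, the ligand of the NK receptor NKG2A, had 28.6, 8.58 and 7.61 FPKM in shHMGB2 and 5.57, 3.72 and 20.5 FPKM in mock, and the table holds 6 further numbered rows of it, so its level cannot be read from 1 row. A total of 13 listed genes with a row stayed under the filter, among them CD80, CD86, VTCN1, HHLA2, CD70, HLA-G and IDO1, and their highest value in any library was 0.77 FPKM.

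**Figure D3:**
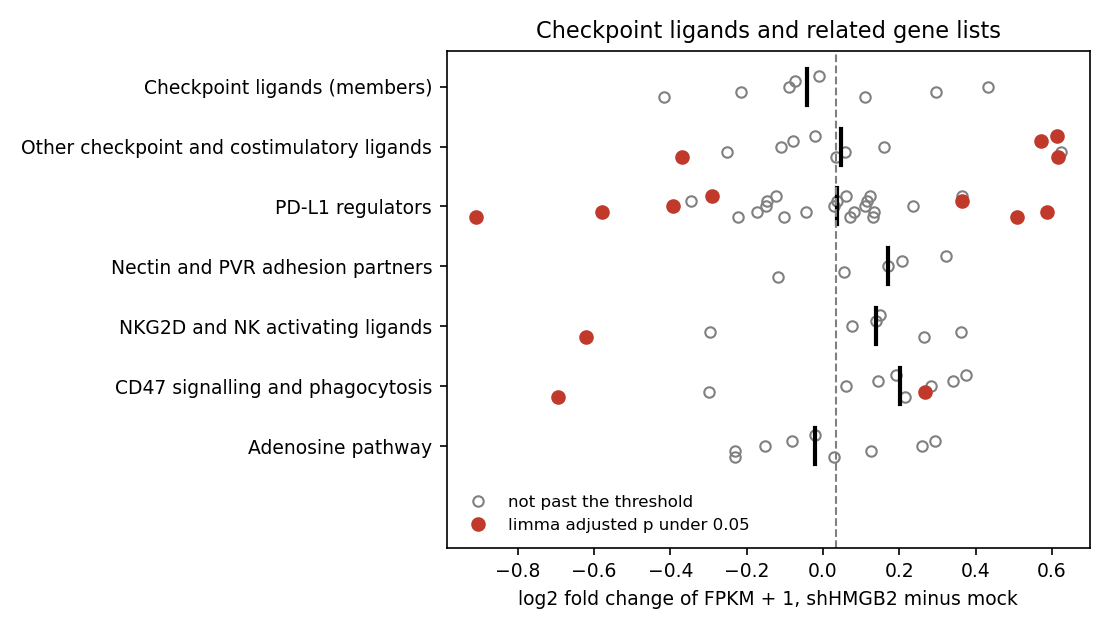
Log2 fold change of FPKM + 1, shHMGB2 minus mock (x axis), of each tested gene in the checkpoint ligand set and in 6 related lists (rows). Filled points passed the limma threshold, black bars are list medians and the dashed line is the median of all rows tested, and no point of the checkpoint ligand set is filled.

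Further lists each belong to single members. Of 10 tested genes of CD47 signalling and phagocytosis, PLSCR1, a phospholipid scramblase, rose and THBS1, which encodes the CD47 ligand thrombospondin-1, fell (20% called), while 8 did not pass and the median was 0.20. PLSCR1 had 145.4, 146.1 and 146.1 FPKM in shHMGB2, against 116.5, 126.1 and 120.6 FPKM in mock (log2 fold change 0.27, limma adjusted p = 0.0291). THBS1 fell to 14.2, 14.2 and 13.3 FPKM in shHMGB2, against 23.7, 21.0 and 24.8 FPKM in mock (log2 fold change -0.70, limma adjusted p = 0.00315). PLSCR1 kept its call only when the dropped library was mock replicate 1 (limma adjusted p from 0.0576 to 0.118 otherwise), and it lost it under upper-quartile (0.0787) and median-of-ratios scaling (0.064). QPCTL, the enzyme that modifies the CD47 end bound by SIRPA, had 10.6, 8.74 and 6.64 FPKM in shHMGB2 and 11.6, 10.8 and 9.86 FPKM in mock (limma adjusted p = 0.23).

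Of 7 tested NKG2D and NK cell activating ligands, 1 fell (14.3%) and 6 did not pass. Their median of 0.14 is the row of BAG6, whose level is uncertain. The 1 that fell was ULBP2, an NKG2D ligand, with 8.57, 7.15 and 8.59 FPKM in shHMGB2, against 13.1, 12.6 and 13.3 FPKM in mock (log2 fold change -0.62, limma adjusted p = 0.00624). RAET1L, a close relative whose reads could be split from it, had a log2 fold change of -0.30 (limma adjusted p = 0.123). ULBP2 passed whichever library was left out. MICA and BAG6 of this list have 4 and 6 further numbered rows in the table, so their single rows were not read as levels.

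Of 5 tested partners of PVR and the nectins, 0 passed in limma, with 2 at an unadjusted p under 0.05 (27.9% of all rows) and a median of 0.17. NECTIN3 had the smallest p, with 3.77, 3.81 and 3.76 FPKM in shHMGB2, against 2.52, 2.75 and 3.23 FPKM in mock (log2 fold change 0.32, limma adjusted p = 0.0738), and it passed without mock replicate 3 (limma adjusted p = 0.049). Of 9 tested genes of the adenosine pathway, 0 passed in limma, with 3 at an unadjusted p under 0.05 (27.9% of all rows) and a median of -0.02. ADORA2B, an adenosine receptor, had 34.8, 36.7 and 38.4 FPKM in shHMGB2, against 43.8, 44.9 and 40.9 FPKM in mock (log2 fold change -0.23, limma adjusted p = 0.0715). ENTPD1 (CD39), which makes the AMP that CD73 uses, was low, with 1.86, 1.85 and 1.78 FPKM in shHMGB2 and 1.71, 2.18 and 2.11 FPKM in mock. The receptors TIGIT, CD96, CD226, LAG3 and HAVCR2 (TIM-3) stayed at or under 0.43 FPKM in shHMGB2 and 0.15 FPKM in mock. PVRIG, a receptor of NECTIN2, had 0.85, 0.87 and 0.93 FPKM in shHMGB2 and 0.42, 0.89 and 0.61 FPKM in mock, under the filter and with overlapping groups.

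Among all rows 442 passed as higher and 463 as lower, while upper-quartile scaling gave 312 as higher with 527 as lower, and median-of-ratios scaling 309 as higher with 636 as lower. The counts of 442 and 463 fell when any shHMGB2 library or mock replicate 2 was dropped, in fits with fewer libraries to test with. They were 111 higher and 209 lower without shHMGB2 replicate 1, and 97 and 193 without shHMGB2 replicate 2. Without shHMGB2 replicate 3 they were 118 and 193, and without mock replicate 2 they were 123 and 204. Dropping mock replicate 1 gave 358 and 446, and dropping mock replicate 3 gave 449 and 424. Over all settings tried, the log2 fold change of NT5E ranged from -0.52 to -0.36, that of LGALS9 from 0.34 to 0.53, that of CD274 from 0.22 to 0.36 and that of PVR from -0.39 to -0.11. With library weights all 4 passed, as did 2436 rows as higher and 1758 as lower. Under the other settings tried, PVR, LGALS9 and CD274 did not pass.

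**Figure D4:**
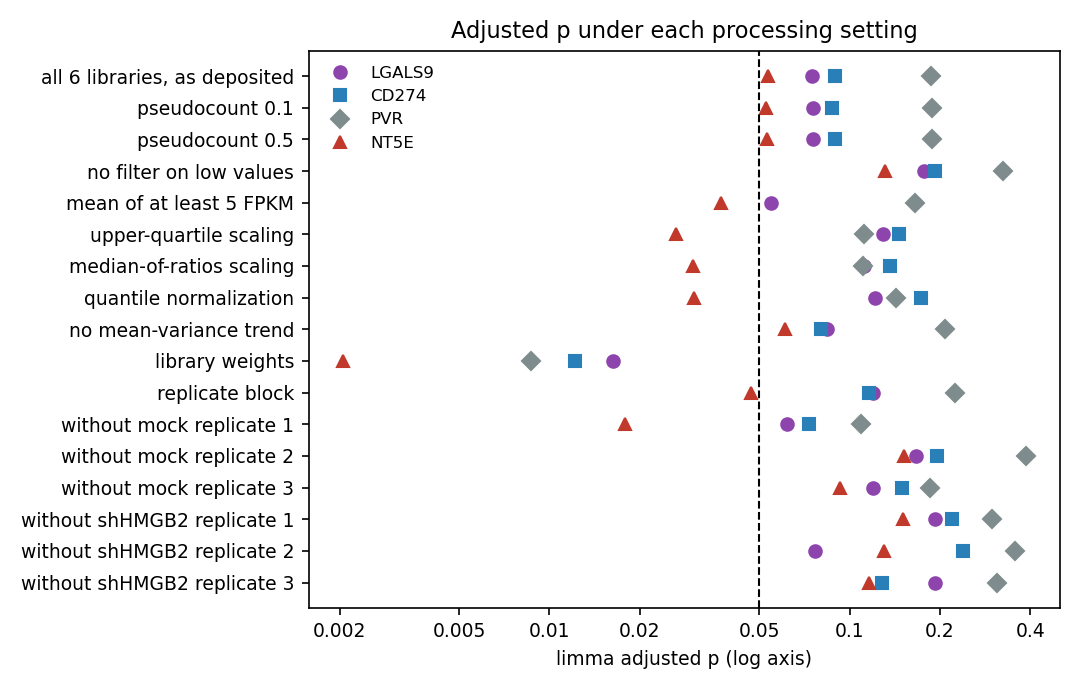
Adjusted p from limma (x axis, log scale) of NT5E, LGALS9, CD274 and PVR under each processing setting and with each library left out (rows), with the threshold of 0.05 as a dashed line. NT5E lies under the line in 7 of 16 alternative settings, and the other 3 only with library weights.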

How the data were processed

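Per the labels' protocols, Trizol RNA went into an mRNA library kit. The submitters' processing notes list Bowtie2 2.2.5, RSEM 1.2.12 and hg38 and give them no role. The authors deposited FPKM per library, per the file headers, group values that are a normalized signal, a log2 fold change, and p-value and adjusted p-value columns whose test those sources do not name. For rows above 0 in a single library, the deposited group signal, summed over groups and multiplied by 3, fell on multiples of a fixed step (100% of rows, tolerance 0.01), from which relative size factors were read. Reads per gene and library were not recovered, so no count test was run.

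Rows with a mean of at least 1 FPKM were fitted as log2(FPKM + 1) in R 4.3.3 with limma 3.58.1, using group as the term, a trend of variance on mean level and p-values adjusted by Benjamini-Hochberg, and the fit was tested on simulated data. Fold changes on this scale understate those of low genes. The text names the 9 members, HMGB2, the LGALS9 copies and the 3 profiles nearest to CD274. Of each list it names the 4 largest calls, or the smallest p where none passed, and beside them the genes said to be chosen later; 1 called gene of the PD-L1 regulator list is not reported here. The members, lists and tests were chosen with earlier results of these data known. Alternatives were the pseudocount, filter, scaling, variance model, library weights, a replicate block, each library left out and summed LGALS9 copies. Tables and motif searches used Python 3.11.15 with pandas 2.3.3. Gene positions and promoters are from RefSeq, GRCh38.p14.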

Additional observations from a re-analysis of the deposited data

How the results depend on the processing

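With 3 libraries a group, depth and spread limit what can be called, and PDCD1LG2 could not be tested. Counts of rows higher and lower were 167 and 245 with no filter, 2436 and 1758 with library weights, and 138 and 234 with the replicate block. Leaving out a library gave 97 to 449 higher and 193 to 446 lower. Members past the threshold numbered 4 with library weights and 1 (NT5E) under a mean of at least 5 FPKM, under each of the 3 scalings and with the replicate block. They were 0 to 1 when a library was left out. Same-numbered libraries did not deviate together (correlations -0.012, -0.038 and -0.096, and 0 of 6 libraries correlated best with their own number), so the block pairs only numbers; with it NT5E had a limma adjusted p of 0.0468, and BTN3A1 (0.0526), CD24 (0.0703), CMTM7 (0.0807), PLSCR1 (0.0831), JAK1 (0.0663), IFNGR2 (0.0767) and MYC (0.0584) lost their calls. NT5E had log2 fold changes of -0.42 under the 5 FPKM filter and the block, -0.47 under upper-quartile and median-of-ratios scaling, -0.46 after quantile normalization and -0.48 with weights. With weights CD274 had 0.30, LGALS9 0.40, PVR -0.39, CD276 0.0038 and CD47 0.029, and CD47 had 0.034 after quantile normalization, with the sign turned for CD276 and CD47. Without single libraries CD47 ranged from -0.062 to 0.019 and NT5E from -0.52 to -0.36. Calls among PD-L1 regulators were 2 with no filter, 16 with weights, 3 with the block and 2 to 6 without a library. For other checkpoint ligands they were 2 under the 5 FPKM filter and with the block. For CD47 signalling they were 1 under upper-quartile and median-of-ratios scaling and with the block, 4 after quantile normalization, 7 with weights and 1 to 3 without a library. Weights gave 2 for PVR partners, 3 for NK ligands and 2 for the adenosine pathway, and PVR partners had 0 to 1 without a library. CD274 has no value under the 5 FPKM filter, since its mean lies below it.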
